A study of Mus musculus with 11 samples.

Results

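The circadian clock genes described here are 10 genes chosen by symbol from a list of clock activators, repressors and a clock output factor: Arntl, Clock, Npas2, Per1, Per2, Per3, Cry1, Nr1d1, Nr1d2 and Dbp. All 10 were found among the 46517 genes of the count table, and all 10 passed the filter on low counts that left 14619 genes for testing. The list was not built from changes in expression, but it was chosen with earlier results of these data known. RNA came from the ventricular myocardium of mice whose surgery was done at 10 to 12 weeks of age. KO mice (Tnnt2-Cre+/-; Lmnb2 fl/fl) carried floxed Lmnb2, which encodes lamin B2 of the nuclear lamina, and a Cre transgene driven by the Tnnt2 promoter, active in cardiomyocytes. WT mice carried the same Cre without floxed Lmnb2. The groups were KO TAC (3 libraries), WT TAC (3), KO sham (3) and WT sham (2), where TAC is transverse aortic constriction, a band on the aorta that raises the pressure load on the left ventricle, and sham is the control surgery. The genotype label of WT sham 2 reads WT, and that of the other WT libraries Lmnb2 WT. Neither the time of day of tissue collection nor the interval after surgery was stated in the sources used here.

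The mammalian clock is a feedback loop of transcription. ARNTL (BMAL1) pairs with CLOCK or NPAS2 and activates genes with E-box elements, among them the Per and Cry genes, Nr1d1, Nr1d2 and Dbp; PER and CRY proteins then inhibit this pair, and the nuclear receptors NR1D1 and NR1D2 (REV-ERB alpha and beta) repress Arntl. The loop runs in cardiomyocytes as in most cells, so the level of each member in a tissue depends on the hour at which it was taken, and Arntl peaks about opposite to Dbp and Nr1d1.

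The libraries held 1.48e+07 to 1.73e+07 counts each, and levels are given as CPM, counts scaled to library size with TMM, a method that corrects for differences in RNA composition. The targeted gene Lmnb2 measured 9.72, 3.24 and 4.46 CPM in the TAC libraries labelled KO, against 2.86, 2.16 and 6.70 CPM in WT TAC libraries. It measured 0.649, 1.81 and 2.43 CPM in KO sham libraries, against 4.44 and 3.86 CPM in WT sham libraries. Lmnb2 was thus lower in every library labelled KO after sham surgery but not after TAC, in bulk tissue that also holds cells without this Cre activity, and KO below means labelled KO. KO TAC 1 and WT TAC 3 stood apart from the other TAC libraries in composition: messenger RNAs of ribosomal proteins took 0.890% and 1.35% of their counts, against 3.27% to 6.88% in the other 4 and 0.665% to 1.77% in the 5 sham libraries. By this share the 2 libraries lay within the range of the sham libraries, and the remaining TAC libraries above it. The mitochondrial share of counts moved with surgery too, with some overlap, at 13.2% to 35.9% in TAC and 32.8% to 49.4% in sham libraries, and its part in the changes of Dbp and Per3 below was not tested. With the ribosomal share as a covariate Dbp stayed called lower over both genotypes and Per3 did not. The summed levels of markers of cardiomyocytes, fibroblasts and macrophages also followed surgery within each genotype. The summed level of 8 cardiomyocyte markers was 33206 to 35361 CPM in KO TAC and 27519 to 35982 CPM in WT TAC hearts, against 52760 to 58038 CPM in KO sham and 48718 to 59846 CPM in WT sham. Over both genotypes 3 of these 8 were called lower after TAC and 0 higher (edgeR adjusted p at or below 0.05). Among all genes tested 8.96% were called lower and 10.6% higher. The sum of 8 fibroblast markers was 2429 to 3224 and 3284 to 6078 CPM in the TAC libraries of KO and WT, against 913 to 1152 and 781 to 849 CPM in their sham libraries, and 5 of the 8 were called higher. Of 7 macrophage markers 6 were called higher, with sums of 418 to 1459 and 383 to 2321 CPM in KO and WT TAC, against 202 to 405 and 199 to 332 CPM in KO and WT sham. By contrast, 0 of 6 endothelial markers and 0 of 3 tested lymphocyte markers were called. Among 6 pericyte and smooth muscle markers 1 was called higher and 1 lower. In bulk tissue fewer cells of a type and less RNA per cell cannot be told apart, and the part of these marker changes in the clock results was not tested.

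Taken per kilobase of exon (RPKM), which allows levels of different genes to be compared, the nuclear receptors Nr1d2 and Nr1d1 had the highest mean levels of the 10 in every group, and Npas2 the lowest. In KO TAC hearts the mean level was 17.3 ± 6.89 RPKM for Nr1d2, 12.1 ± 10.2 for Nr1d1, 3.78 ± 1.66 for Dbp, 2.95 ± 0.587 for Clock and 0.395 ± 0.313 for Npas2 (SD, n = 3). In WT sham hearts it was 29.1 ± 1.22 RPKM for Nr1d2, 19.1 ± 0.387 for Nr1d1, 13.96 ± 5.61 for Dbp, 2.75 ± 0.399 for Clock and 0.154 ± 0.0147 for Npas2 (SD, n = 2). Neighbours in this order were often closer than their spread: the mean of Dbp lay within 1 SD of that of Nr1d1 in WT sham, and Clock, Per2 and Cry1 lay at 2.75 ± 0.399, 2.45 ± 0.666 and 2.44 ± 0.146 RPKM there. Per1 (4.82 ± 0.967) and Per3 (1.94 ± 0.206) stood above and below these 3. Arntl was low among the core genes, with 0.996 ± 0.676 RPKM in KO TAC, 0.998 ± 0.282 in WT TAC, 0.582 ± 0.864 in KO sham and 0.403 ± 0.229 in WT sham.

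**Figure D1:**
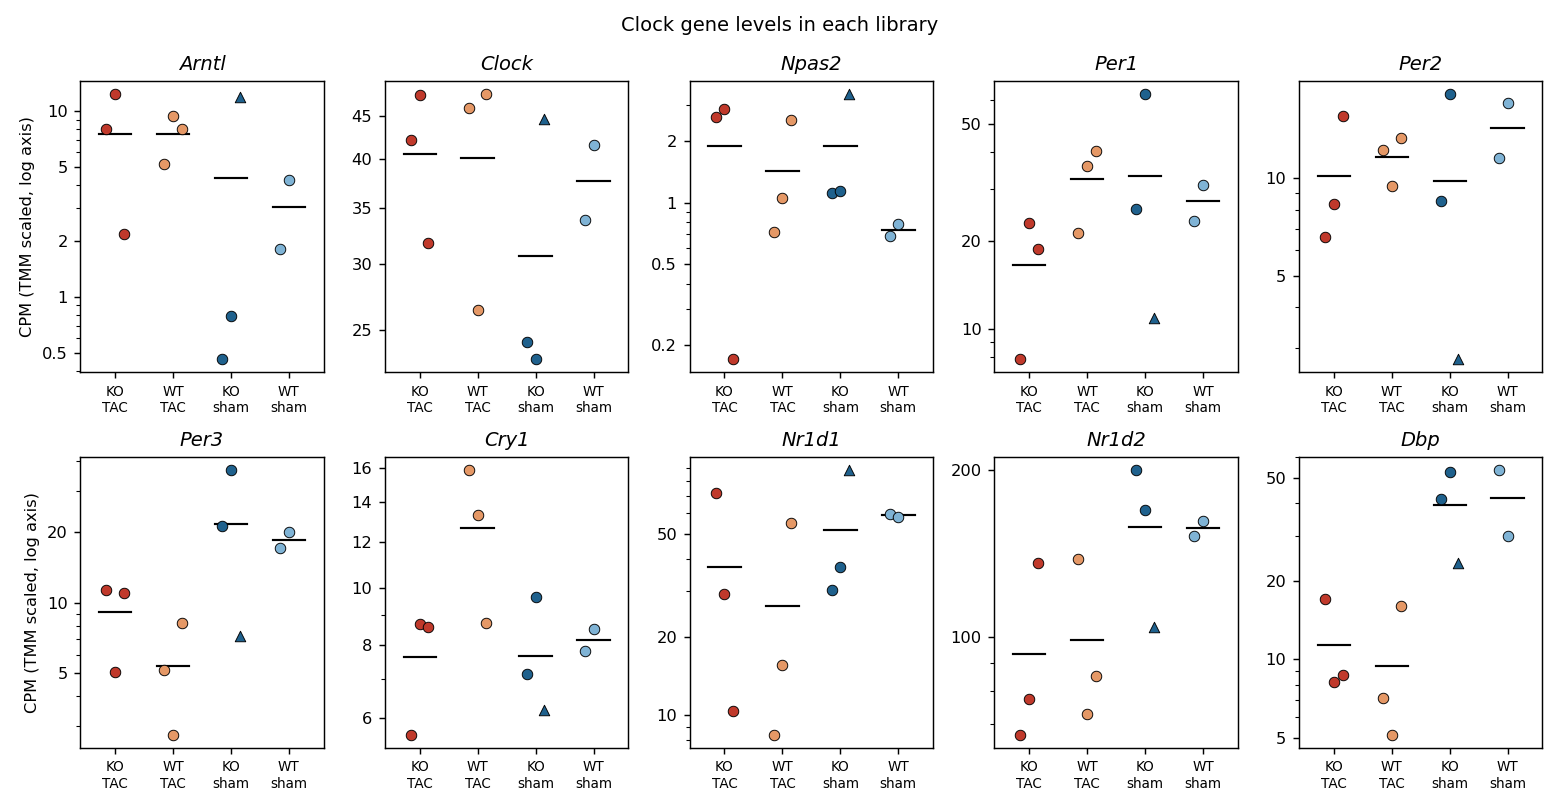
Level of each clock gene in each library in TMM-scaled CPM on a log axis, by group; bars are arithmetic group means and the triangle is KO sham 3. Dbp lies at 5.14 to 17.06 CPM in TAC libraries and at 23.55 to 53.64 CPM in sham libraries, while the groups overlap for the other 9 genes when genotypes are pooled.

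After TAC the clearest change was a fall of Dbp, the D-box binding factor that the clock activator drives through E-boxes and that passes the rhythm on to output genes, with Per3 next. Over both genotypes 2 of the 10 members passed the test, both lower and none higher, against 19.5% of all genes tested (2855 genes, of which 1545 were higher and 1310 lower). The share among the members is therefore close to that among all genes. A call here is a Benjamini-Hochberg adjusted p at or below 0.05 over all tested genes in the quasi-likelihood test of edgeR. With 6 TAC and 5 sham libraries the p-values set each change against the spread between these mice. An unadjusted edgeR p under 0.05 was seen for 3 of the 10 members and for 4848 of the 14619 genes tested. The median log2 fold change of the 10 was -0.28, against 0.05 over all genes tested.

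Dbp measured 17.06, 8.21 and 8.69 CPM in KO TAC libraries and 7.09, 5.14 and 15.99 CPM in WT TAC libraries. In sham hearts it measured 41.33, 52.62 and 23.55 CPM in KO and 53.64 and 29.92 CPM in WT. Every TAC library lay below every sham library, as for 13.6% of all tested genes if either direction is counted, and KO TAC 1 and WT TAC 3, the libraries that stood apart in composition, were the highest of the TAC libraries. The log2 fold change of Dbp over both genotypes was -1.95 ± 0.33 (standard error; edgeR adjusted p = 0.00169), a 3.86-fold lower level, and it was -2.48 ± 0.27 (adjusted p = 2.65e-05) without those 2 libraries. In WT alone it was -2.15 ± 0.51 (edgeR adjusted p = 0.0276), and in KO alone -1.79 ± 0.47 (adjusted p = 0.0501), just outside the threshold. The difference between these changes, the interaction of genotype and surgery for Dbp, was 0.36 ± 0.68 on the log2 scale and did not pass (adjusted p = 0.994). The WT call rested on few libraries, since the adjusted p was 0.102 without WT TAC 1, 0.108 without WT TAC 2, 0.224 without WT sham 1 and 0.0914 without WT sham 2. The KO value was called without KO TAC 1 (adjusted p = 0.0222), without WT TAC 3 (0.0179) and with DESeq2 (0.00419). It was not called in 13 alternatives, among them limma-voom, library totals in place of TMM and libraries whose titles end in M. The Dbp gene (ENSMUSG00000059824; GRCm38 chromosome 7, 45705088 to 45710203, plus strand) overlaps Sphk2, and without a stated strand setting reads in the shared stretch cannot be assigned; Sphk2 measured 4.805 to 11.1 CPM in TAC and 6.46 to 9.59 CPM in sham libraries.

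Per3, the member of the Period family that is least needed for the loop itself, fell with Dbp over both genotypes. It measured 11.30, 5.09 and 11.04 CPM in KO TAC and 5.18, 2.75 and 8.20 CPM in WT TAC. The sham libraries held 21.22, 36.81 and 7.22 CPM in KO and 17.19 and 19.997 CPM in WT. All WT TAC libraries lay below both WT sham libraries, but KO sham 3 was lower than 2 of the KO TAC libraries, so the groups overlapped in KO. The log2 fold change was -1.49 ± 0.39 (edgeR adjusted p = 0.0172) over both genotypes, -1.25 ± 0.54 (adjusted p = 0.224) in KO and -1.79 ± 0.59 (adjusted p = 0.0847) in WT. Without KO TAC 1 and WT TAC 3 it was -1.80 ± 0.41 over both genotypes (adjusted p = 0.00396). In WT it was called without WT TAC 3 (-2.23, adjusted p = 0.0309) and with DESeq2 (-1.75, 0.0345). The call over both genotypes was lost without KO sham 2 (adjusted p = 0.0597) and without WT sham 2 (0.0501), and with library totals in place of TMM (-1.07, 0.0609), a scaling that moves the median log2 change of all genes to 0.45. It was also lost with the share of ribosomal protein counts as a covariate (-1.04, 0.0674) and among libraries whose titles end in M (0.131). Per3 (ENSMUSG00000028957, chromosome 4, 151003652 to 151044665, minus strand) overlaps Camta1. Camta1 was far more abundant than Per3, at 105 to 224 CPM in TAC and 120 to 155 CPM in sham libraries. As for Dbp, reads in the shared stretch cannot be assigned without a stated strand setting.

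Per1 and Per2, the Period genes that carry most of the repression and that also respond acutely to stimuli, were not called. Per1 measured 7.91, 23.00 and 18.76 CPM in KO TAC and 21.21, 35.76 and 40.50 CPM in WT TAC hearts, against 25.67, 63.00 and 10.91 CPM in KO sham and 23.32 and 31.02 CPM in WT sham. KO sham 2 was the highest and KO TAC 1 the lowest of all libraries for Per1, and the groups overlapped in both genotypes. Its log2 fold change was -1.01 ± 0.55 (edgeR adjusted p = 0.352) in KO and 0.26 ± 0.61 (adjusted p = 0.821) in WT. The interaction of -1.27 ± 0.82 did not pass the test (adjusted p = 0.992). Per2 measured 6.58, 8.32 and 15.56 CPM in KO TAC and 12.27, 9.47 and 13.29 CPM in WT TAC hearts, against 8.52, 18.16 and 2.78 CPM in KO sham and 11.57 and 17.08 CPM in WT sham. Here the highest and the lowest library of all were both KO sham, KO sham 2 and KO sham 3, and the change over both genotypes was -0.11 ± 0.38 (adjusted p = 0.872).

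Promoter windows of 3 genes are shown because they hold E-boxes, the element that ARNTL and its partners bind, or D-boxes, the element that DBP binds: Per3, which fell together with Dbp, Per1, which did not pass, and Tef, the gene of a relative of DBP. They are RefSeq windows of 250 bases before the transcription start (GRCm38.p6), found for 9 of the 10 members, and the first of 2 windows is shown for Per1 and Tef. Capitals mark the E-box CACGTG and the D-box TTATGNAA, and both strands were searched.
Per3 (chr4:151044666-151044915, minus strand): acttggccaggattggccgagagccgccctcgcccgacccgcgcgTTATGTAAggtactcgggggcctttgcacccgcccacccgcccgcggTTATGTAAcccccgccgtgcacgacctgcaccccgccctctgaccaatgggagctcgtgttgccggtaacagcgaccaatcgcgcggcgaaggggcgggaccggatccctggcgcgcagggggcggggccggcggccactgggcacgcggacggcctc
Per1 (chr11:69098699-69098948, plus strand): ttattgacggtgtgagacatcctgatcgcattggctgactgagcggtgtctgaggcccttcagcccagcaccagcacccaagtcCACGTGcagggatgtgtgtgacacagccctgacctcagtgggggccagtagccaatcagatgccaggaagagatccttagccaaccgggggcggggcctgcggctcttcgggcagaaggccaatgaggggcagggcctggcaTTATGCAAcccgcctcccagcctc
Tef (chr15:81802423-81802672, plus strand): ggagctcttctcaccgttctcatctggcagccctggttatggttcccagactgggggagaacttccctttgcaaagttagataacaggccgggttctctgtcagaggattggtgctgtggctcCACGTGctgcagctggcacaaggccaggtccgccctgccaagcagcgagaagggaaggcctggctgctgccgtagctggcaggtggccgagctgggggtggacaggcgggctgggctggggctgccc
Per3 holds 2 D-boxes, 205 to 198 and 158 to 151 bases before the start, and no E-box. Per1 holds an E-box 166 to 161 and a D-box 24 to 17 bases before the start, and Tef an E-box 127 to 122 bases before it. The second window held none of these motifs for Per1 and 1 E-box for Tef. Among 32851 such windows 6.02% hold the E-box and 3.07% the D-box. The Cry1 window holds 1 E-box and 1 E-prime box (CACGTT, in 3.85% of windows), and that of Nr1d1 1 E-prime box. None of these motifs, nor the ROR response element (0.332% of windows), was found in the windows of Arntl, Clock, Npas2, Nr1d2, Dbp or Hlf. A match of letters describes these windows and does not show binding.

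Nr1d2 and Nr1d1 encode the nuclear receptors that close the second loop on Arntl. Nr1d2 measured 66.91, 77.49 and 136.14 CPM in KO TAC and 138.64, 72.99 and 85.27 CPM in WT TAC hearts, against 200.14, 169.87 and 104.62 CPM in KO sham and 152.55 and 161.86 CPM in WT sham. Apart from KO sham 3, each sham library was above each TAC library. The log2 fold change of Nr1d2 was -0.72 ± 0.25 (edgeR adjusted p = 0.0621) over both genotypes, outside the threshold, and without KO sham 3 it was -0.83 ± 0.26 (adjusted p = 0.0493). It passed as well without KO TAC 3 (adjusted p = 0.0346) and without WT TAC 1 (0.0307), with DESeq2 (0.0379), with limma-voom (0.0497) and without the filter on low counts (0.0368). With the title letter as a covariate (0.0156), among titles ending in M (0.0253) and with the ribosomal share as a covariate (0.00912) it passed too, and with library totals it was at -0.31 (0.371). Nr1d2 stayed outside the threshold in 11 of the 20 alternatives run. Among them were the fits without KO sham 1, KO sham 2, WT sham 1 or WT sham 2, and the fit without both KO TAC 1 and WT TAC 3. Nr1d1 measured 71.73, 29.30 and 10.35 CPM in KO TAC and 8.40, 15.60 and 54.89 CPM in WT TAC hearts, against 30.30, 37.17 and 88.09 CPM in KO sham and 59.71 and 58.02 CPM in WT sham. The high TAC values of Nr1d1 were those of KO TAC 1 and WT TAC 3. Its change over both genotypes was -0.79 ± 0.52 (adjusted p = 0.312) and, without these 2 libraries, -1.81 ± 0.38 (adjusted p = 0.00244). In WT, where it was at -1.16 ± 0.79, it was called without WT TAC 3 (-2.30, adjusted p = 0.0485), and in KO, where it was at -0.48 ± 0.72, it was at -1.41 without KO TAC 1 and 0.14 without KO sham 3. Nr1d1 (chromosome 11, 98767932 to 98775333, minus strand) overlaps Thra, which measured 25.6 to 40.5 CPM in TAC and 47.3 to 55.0 CPM in sham libraries.

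Arntl, the activator that the loop cannot run without, spanned the widest range of the 10 members on the log2 scale. It measured 8.01, 12.31 and 2.17 CPM in KO TAC and 5.18, 9.35 and 8.00 CPM in WT TAC. In sham hearts it measured 0.463, 0.783 and 11.88 CPM in KO, from 5, 13 and 171 counts, and 1.81 and 4.25 CPM in WT. Both WT sham libraries lay below all WT TAC libraries, and KO sham 1 and KO sham 2 were the lowest of all, while KO sham 3 was the second highest. The log2 fold change was 1.004 ± 0.69 (edgeR adjusted p = 0.334) over both genotypes, 0.77 ± 0.93 (adjusted p = 0.737) in KO and 1.32 ± 1.09 (adjusted p = 0.472) in WT. Without KO sham 3 it was 2.25 ± 0.59 (adjusted p = 0.0254) over both genotypes and 3.54 ± 0.78 (adjusted p = 0.0468) in KO, so the call of Arntl depended on whether this library was included.

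Clock, the histone acetyltransferase partner of ARNTL, varied least of the 3 activators, with 42.18, 47.61 and 31.75 CPM in KO TAC and 45.99, 26.41 and 47.77 CPM in WT TAC hearts, against 24.18, 23.11 and 44.60 CPM in KO sham and 33.82 and 41.57 CPM in WT sham. The groups overlapped in both genotypes, and its change over both was 0.26 ± 0.23 (edgeR adjusted p = 0.464). Npas2, which can take the place of CLOCK, was near the limit of this depth, with 2.62, 2.89 and 0.172 CPM in KO TAC (55, 50 and 3 counts) and 0.715, 1.05 and 2.54 CPM in WT TAC. It measured 1.11, 1.15 and 3.40 CPM in KO sham and 0.688 and 0.787 CPM in WT sham, and its change over both genotypes was 0.40 ± 0.63 (adjusted p = 0.699). Cry1, the cryptochrome that inhibits the activator pair, measured 5.62, 8.67 and 8.58 CPM in KO TAC and 15.91, 13.32 and 8.72 CPM in WT TAC hearts, against 7.13, 9.65 and 6.18 CPM in KO sham and 7.82 and 8.50 CPM in WT sham. WT TAC libraries were above WT sham libraries, with no such order in KO, and the change was -0.01 ± 0.31 (adjusted p = 0.993) in KO and 0.63 ± 0.35 (adjusted p = 0.276) in WT.

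In the genotypes taken singly, 1 of the 10 members (Dbp, lower) was called in WT, where 6.92% of all genes were (567 higher and 444 lower), and 0 of 10 in KO, where 4.70% were (486 higher and 201 lower). Those calls are from edgeR. In each genotype 2 members had an unadjusted p under 0.05, as did 3775 of the 14619 tested genes in WT and 2821 in KO. DESeq2 called 2 members in WT and 1 in KO, against 15% and 10.3% of all genes, and limma-voom called 1 in WT and 0 in KO, against 4.99% and 3.39%. The TAC and sham libraries of WT did not overlap for 6 of the 10 members, against 40.3% of all tested genes: Dbp, Per3, Nr1d1 and Nr1d2 were all below (21.2% of all genes), and Arntl and Cry1 all above (19.1%). In KO, Dbp was the one member without overlap, against 25.8% of all tested genes. Without KO sham 3 the KO fit called Arntl higher and no other member; Dbp was then at -2.05 ± 0.49 (adjusted p = 0.0662).

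**Figure D2:**
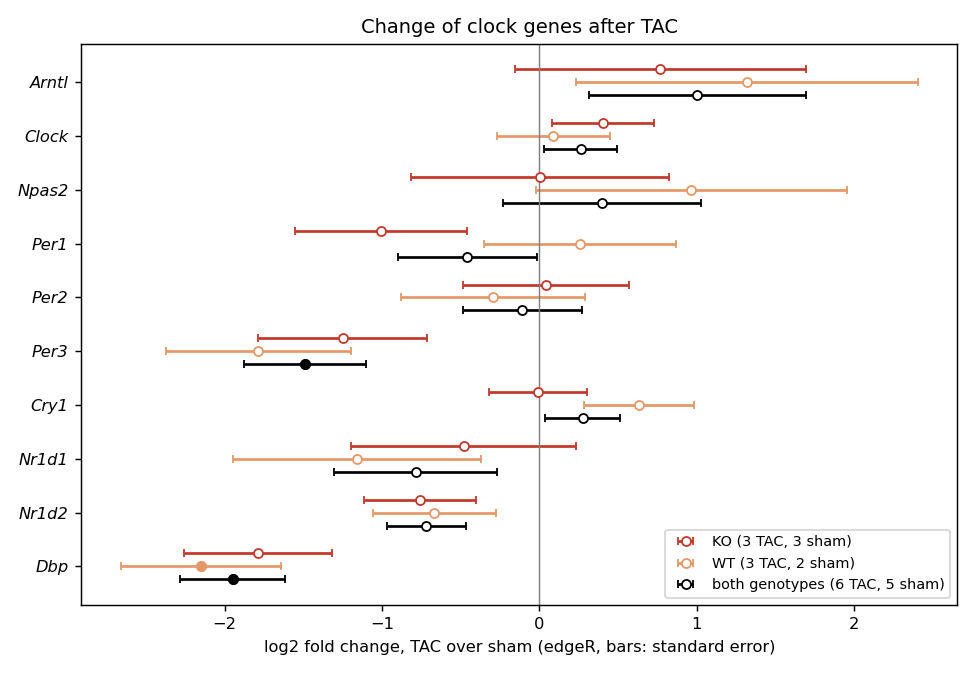
Log2 fold change of each clock gene, TAC over sham, in KO, in WT and over both genotypes, with standard errors from edgeR; filled points passed the adjusted p of 0.05. Dbp in WT, and Dbp and Per3 over both genotypes, are the only filled points, at -2.15, -1.95 and -1.49.

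KO and WT were also compared within each surgery, as the labels set them apart; Lmnb2 itself was not lower in KO TAC than in WT TAC libraries, so the comparison after TAC is one of labels. After TAC, edgeR called 0 of the 10 members and 0 of 14619 genes, a background of 0%. An unadjusted p under 0.05 was seen for 1 member and 930 genes, and over all genes DESeq2 called 6 and limma-voom 0. The member was Cry1, which was lower in each KO TAC library than in each WT TAC library (7.74% of all tested genes did not overlap here), at 5.62, 8.67 and 8.58 CPM against 15.91, 13.32 and 8.72 CPM. The gap between KO TAC 2 and WT TAC 3 was small, and the log2 difference was -0.73 ± 0.31 (edgeR adjusted p = 0.747). For the other 9 members the groups overlapped; Per1 averaged 16.56 ± 7.78 CPM in KO TAC and 32.49 ± 10.05 CPM in WT TAC (SD, n = 3 each), a log2 difference of -0.97 ± 0.55 (adjusted p = 0.747).

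After sham surgery 0 of 10 members and 0 of 14619 genes (0%) were called by edgeR between KO and WT, and 0 members and 185 genes had an unadjusted p under 0.05. Over the whole table DESeq2 called 3 genes and limma-voom 0. Npas2 was the one member whose groups did not overlap, against 15.3% of all tested genes, with each KO sham library above both WT sham libraries, at a log2 difference of 1.35 ± 0.997 (adjusted p = 1). These rest on 11 and 10 counts in the WT sham libraries and 12, 19 and 49 counts in KO sham. For the interaction, 0 members and 0 genes (0%) were called by edgeR, 0 members and 434 genes had an unadjusted p under 0.05, and DESeq2 called 2 genes and limma-voom 0. The members ranged from -1.27 for Per1 to 0.68 for Nr1d1 on the log2 scale, with standard errors of 0.47 (Cry1) to 1.40 (Arntl).

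Libraries of the same group also differed from each other. In the KO sham group, KO sham 1 and KO sham 2 had the lowest Arntl and Clock and the highest Nr1d2 of the 11 libraries, while KO sham 3 had the highest Npas2 and Nr1d1, the second highest Arntl and the lowest Per2. The count ratio of Dbp to Arntl, which does not depend on library scaling, was 2.13, 0.667 and 4.00 in KO TAC and 1.37, 0.550 and 2.00 in WT TAC. It was 89.2, 67.1 and 1.98 in KO sham and 29.6 and 7.04 in WT sham. KO sham 3 thus fell among the TAC libraries by this ratio, and the other 4 sham libraries lay above all TAC libraries. The count ratio of Per3 to Arntl did likewise for KO sham 3, at 0.608, although in KO TAC 3 it reached 5.08, above the 4.70 of WT sham 2.

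**Figure D3:**
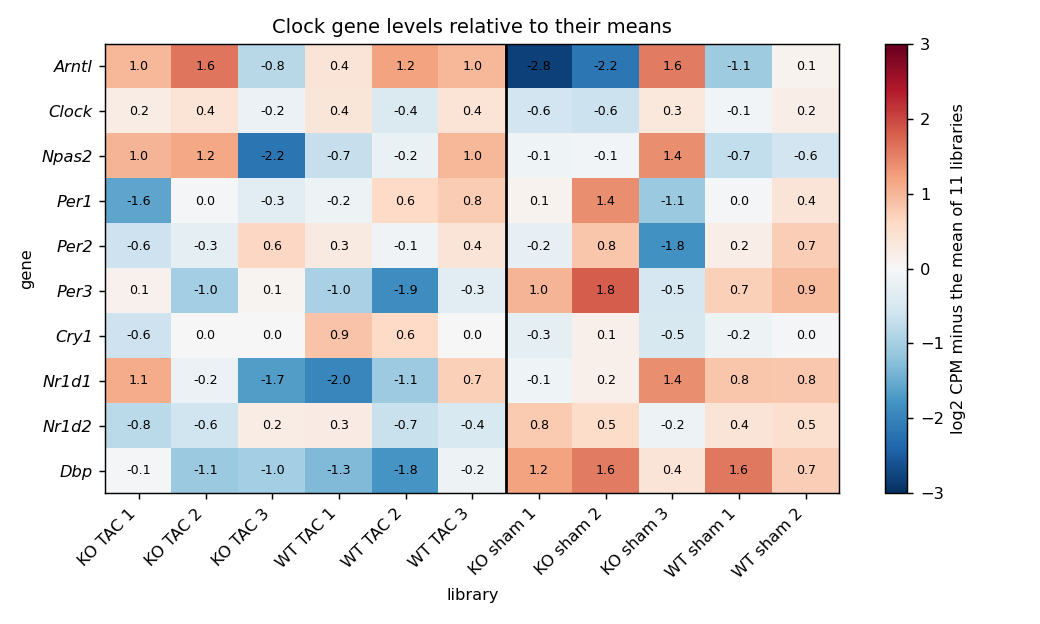
Log2 CPM of each clock gene minus its mean over the 11 libraries, TAC libraries left of the line and sham libraries right. KO sham 1 and KO sham 2 lie at -2.80 and -2.17 for Arntl, and KO sham 3 at 1.56.

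Over the 11 libraries Arntl ran against its repressor Nr1d2 and against Per3. On log2 CPM, Pearson's r between Arntl and Nr1d2 was -0.84 (permutation test, adjusted p = 0.0123 over the 9 relations computed, raw p = 0.00137) and Spearman's rho -0.85 (adjusted p = 0.0124). The sign held without the 2 libraries farthest from the median of Arntl, KO sham 1 and KO sham 2, where r was -0.77, within the 6 TAC libraries alone (-0.82, exact p = 0.0431, adjusted p = 0.194), and after centring on group means (-0.80). For Per3, r was -0.79 (permutation, adjusted p = 0.0178), -0.64 without the same 2 libraries (permutation, raw p = 0.0667) and -0.50 in the TAC libraries (exact p = 0.356), so its threshold was passed with those libraries only. Clock ran with Arntl at r = 0.76 (permutation, adjusted p = 0.0247), but this rested on KO sham 1 and KO sham 2, since r was 0.41 without them and 0.30 in TAC libraries (exact p = 0.603).

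Dbp gave r = -0.64 with Arntl over all libraries (permutation, raw p = 0.0368, adjusted p = 0.0829) and 0.05 within the TAC libraries (exact p = 0.926), so it did not hold within TAC, and it was -0.38 without KO sham 1 and KO sham 2. Npas2 gave 0.53 over all libraries (permutation, adjusted p = 0.170) and 0.85 without KO sham 1 and KO sham 2. Within TAC it gave 0.90 (exact p = 0.0181, adjusted p = 0.1625), with Spearman's rho at 0.83 (exact p = 0.0583, raw). The remaining members, Per2 (-0.46), Per1 (-0.39), Nr1d1 (0.13) and Cry1 (0.05), had no relation past the threshold over all libraries. Centred on group means, r with Arntl was -0.77 for Per2, -0.71 for Per3, -0.48 for Per1, -0.39 for Dbp and -0.37 for Cry1. It was 0.74 for Npas2, 0.71 for Clock and 0.61 for Nr1d1, also after centring. Within TAC, Per2 was at -0.71 (exact p = 0.0958) and Nr1d1 at 0.57 (exact p = 0.232). No correlation is given over fewer than 6 libraries, and so none for the 5 sham libraries.

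**Figure D4:**
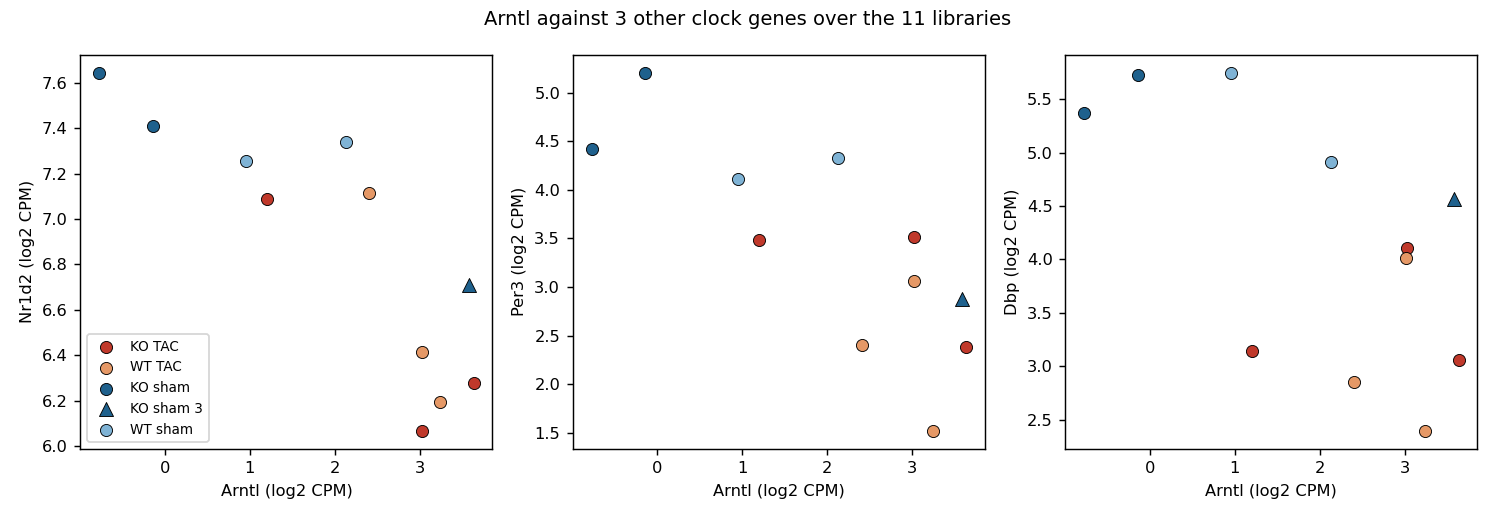
Log2 CPM of Nr1d2, Per3 and Dbp against that of Arntl, 1 point per library, coloured by group; the triangle is KO sham 3. Nr1d2 is lower where Arntl is higher, with r = -0.84, and KO sham 3 lies with the TAC libraries for Nr1d2 and Per3.

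The other genes of the clock network came from lists of 12 genes each. Of 12 other loop genes all were tested, and over both genotypes 0 were called higher and 2 lower, against 10.6% higher and 8.96% lower among all genes, with a median log2 change of -0.20. Those 2 were Hlf and Tef, which encode the D-box binding relatives of DBP. Hlf measured 13.58, 6.07 and 5.49 CPM in KO TAC and 6.97, 2.86 and 12.26 CPM in WT TAC hearts, against 42.44, 60.83 and 11.53 CPM in KO sham and 29.95 and 35.74 CPM in WT sham. Its change was -2.17 ± 0.43 (edgeR adjusted p = 0.00387), and Tef changed by -1.08 ± 0.27 (adjusted p = 0.0142), with 49.9 to 86.8 CPM in TAC and 63.9 to 191 CPM in sham libraries. KO sham 3 was the lowest sham library for both. Among libraries whose titles end in M both calls were lost (adjusted p = 0.0679 and 0.0743), as was that of Tef with library totals (-0.66, adjusted p = 0.102). Taken singly, neither genotype had Hlf or Tef among its calls in the same test. All 3 genes of this family, Dbp among them, were therefore called lower after TAC over both genotypes. Ciart, an E-box driven repressor, was at -1.07 ± 0.47 (adjusted p = 0.130), and Cry2, the second cryptochrome, at -0.71 ± 0.32 (adjusted p = 0.138). Ciart passed without KO sham 3 (adjusted p = 0.0231) and without the filter (0.0130), and Cry2 without KO TAC 1 (0.0494) or WT TAC 3 (0.0465).

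Of 12 kinases, ubiquitin ligases and related enzymes that act on clock proteins, 1 was called higher and 1 lower (10.6% and 8.96% of all genes), with a median of -0.32. Usp2, a rhythmic deubiquitinase with PER and CRY proteins among its substrates, had 31.8 to 70.2 CPM in TAC and 57.7 to 138 CPM in sham libraries (-1.09 ± 0.27, edgeR adjusted p = 0.0131). This call was lost with library totals (-0.69, adjusted p = 0.104) and among titles ending in M (-0.73, 0.164). Fbxl21, a ligase subunit for cryptochromes, was called higher (2.16 ± 0.59, adjusted p = 0.0208) but at 0.405 to 1.85 CPM in TAC and 0.0787 to 0.313 CPM in sham. Without WT sham 1 the adjusted p of Fbxl21 was 0.0518, without WT sham 2 it was 0.0739, among titles ending in M 0.0978, and with the ribosomal share as a covariate 0.0687. The kinase genes Csnk2a1 (-0.58 ± 0.20, adjusted p = 0.0621) and Gsk3a (-0.53 ± 0.20, adjusted p = 0.0762) did not pass; without KO TAC 1 both did (adjusted p = 0.0393 for Csnk2a1 and 0.0247 for Gsk3a), and Csnk2a1 did without WT TAC 3 (0.0495) and with DESeq2 (0.0480).

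Of 12 genes known as clock outputs in the mouse heart, 6 were called lower and 0 higher over both genotypes, against 8.96% and 10.6% of all genes, with a median of -0.71. The list was chosen with earlier results of these data known, so this count is a description and not a test. Dgat2, which makes triglycerides, had 70.6 to 122 CPM in TAC libraries and 169 to 315 CPM in sham libraries (-1.45 ± 0.22, edgeR adjusted p = 0.000676). Kcnip2, the subunit of the transient outward potassium channel that the regulator KLF15 couples to the clock, had 18.4 to 60.8 CPM in TAC and 102 to 168 CPM in sham (-1.84 ± 0.30, adjusted p = 0.00114). Neither pair of ranges overlapped. Kcnh2 and Ucp3 also fell, by 1.10 and 1.79 on the log2 scale (adjusted p = 0.00484 and 0.0150), the first of them at 0.0626 with library totals. The other 2, named after their values were seen, were Klf15 itself at -1.05 and Nampt, the enzyme of NAD salvage, at -0.95. Both calls were lost with library totals (adjusted p = 0.0858 for Klf15 and 0.133 for Nampt), that of Klf15 among titles ending in M (0.0593), and that of Nampt without KO TAC 2 (0.0539), KO sham 1 (0.0567), WT sham 1 (0.0679) or WT sham 2 (0.0570). The cardiomyocyte markers given above moved the same way, and their part in this count was not tested.

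**Figure D5:**
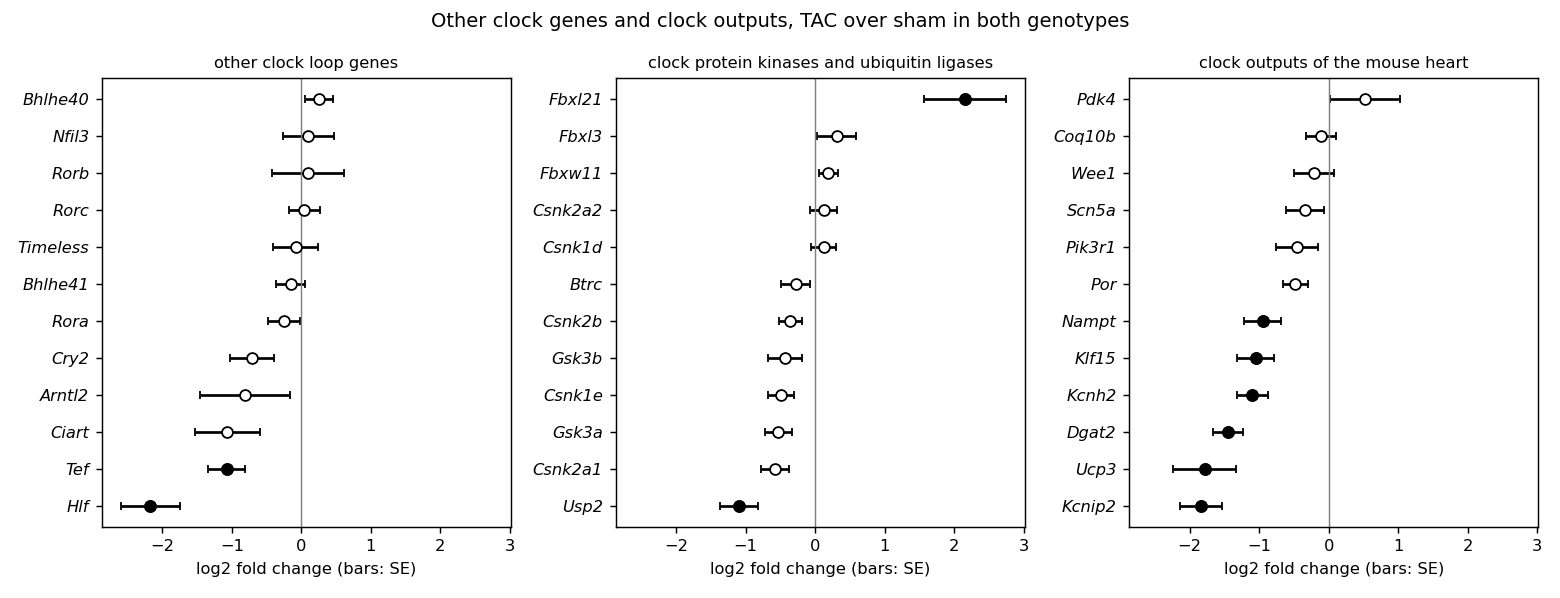
Log2 fold change, TAC over sham in both genotypes, of the other loop genes, of enzymes acting on clock proteins and of clock outputs, with standard errors from edgeR; filled points passed the adjusted p of 0.05. Filled points lie left of zero except Fbxl21, at 2.16.

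Input pathways that act on Per1 were also listed, glucocorticoid and immediate early signalling. These lists too were chosen with earlier results of these data known, so their counts are descriptions. Against the same 10.6% and 8.96% of all genes, 3 of 8 glucocorticoid responsive genes were called higher and 1 lower: Mt2, a metallothionein, at 2.51, Fkbp5, a chaperone of the glucocorticoid receptor, at 2.15, and the cell cycle inhibitor Cdkn1a at 1.99 were higher, and Klf9 was lower at -1.04 on the log2 scale. Fkbp5 had 24.8 to 71.5 CPM in TAC and 5.19 to 21.3 CPM in sham libraries, without overlap. Of 10 immediate early genes 2 were called higher, Egr2 (2.97) and Atf3 (1.98), and 1 lower, the phosphatase gene Dusp1 (-0.999). Egr2 was low throughout, at 1.51 to 4.18 CPM in TAC and 0 to 0.784 CPM in sham libraries. Fos, at -1.19, was not called (edgeR adjusted p = 0.0983). The calls of Klf9 and Dusp1 were lost without WT sham 2 (adjusted p = 0.0579 and 0.0525), that of Klf9 without KO TAC 2 (0.0513), and that of Dusp1 without KO sham 2 (0.0526) or WT sham 1 (0.0622); Fos passed without KO TAC 1 (0.0427), KO sham 1 (0.0266) or the filter (0.0129). The calls of Klf9 and Dusp1 were also lost with library totals (adjusted p = 0.136 and 0.156), among titles ending in M (0.110 and 0.155) and with the ribosomal share as a covariate (0.0839 and 0.0708). Per1, a target of both inputs, was at -0.46 ± 0.44 over both genotypes.

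The genes whose levels ran most like those of Arntl and Dbp were ranked by Pearson's r of log2 CPM over the 11 libraries, among 12580 genes that averaged 1 CPM or more, as a description without a test. For Arntl these were Inhbb (r = 0.88), which encodes an activin subunit, A630001G21Rik (0.86), the DNA sensor gene Cgas (0.85), Tpcn2 (0.84) and Spag5 (0.84), all of low mean level, from 1.10 to 2.38 CPM. None of the 5 is a clock gene of the lists used here. For Dbp they were Dgat2 (0.98), Dusp23 (0.98), Rbm20 (0.97), the gene of a cardiac splicing factor, Rufy1 (0.97) and Mgrn1 (0.97). Dgat2, named above among the outputs, was the closest of all to Dbp, and these libraries share the split between TAC and sham that both genes follow.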

How the data were processed

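RNA of the ventricular myocardium was sequenced in bulk in 11 libraries. The authors' table gives unnormalized read counts for each Ensembl gene, deposited as whole numbers and made with STAR 2.5.1 and featureCounts on GRCm38, per the submitters' processing notes, which also name DESeq2; no strand setting is stated in the sources used here. Of 46517 identifiers, 46005 matched a symbol in GENCODE M21. Groups came from the genotype and treatment labels. The titles of the sham libraries also begin with TAC, and surgery was taken from the treatment label. Titles of the TAC libraries carry the numbers 1101 to 1138 and those of the sham libraries 1301 to 1376. A batch that follows these numbers therefore cannot be told apart from surgery. The 3 titles that end in F are those of KO TAC 3, WT TAC 1 and KO sham 2.

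Counts were tested in R 4.3.3 with edgeR 4.0.16 (filterByExpr, TMM, glmQLFit, glmQLFTest, 2-sided): 1 mean per group over all 11 libraries (7 residual degrees of freedom), and surgery plus genotype for the change over both genotypes. P-values were adjusted over all 14619 tested genes by the Benjamini-Hochberg method, threshold 0.05. Standard errors are the log2 change over the root of F and are approximate. Log2 CPM used a prior count of 2, and RPKM the union exon length. The fit was tested on simulated counts. DESeq2 1.42.0 and limma 3.58.1 were alternatives; numpy 2.4.6 served for the permutation tests (100000 resamples, exact within TAC). Other alternatives were RLE size factors, library totals, no filter on low counts, fits to the contrast's groups alone, the title letter or ribosomal protein share as a covariate, titles ending in M, and leaving out libraries.

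The members and lists were chosen with earlier results of these data known. Beside the members, the text names the 4 genes of each clock or input list with the smallest p over both genotypes, the 5 most like Arntl and Dbp, and Lmnb2. Klf15 and Nampt were named after their values were seen, and Sphk2, Camta1 and Thra because they overlap members.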

Additional observations from a re-analysis of the deposited data

How the results depend on the processing

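The fall of Dbp over both genotypes was called under each of the 20 alternatives run, from -1.53 (library totals) to -2.48 (WT TAC 3 and KO TAC 1 both left out), with the highest adjusted p (0.0381) among titles ending in M. Counts of called members varied, and the percentages beside them are shares of all genes. In WT, against 1 as reported, the counts were 0 with library totals (8.05%) or the contrast's groups alone (3.34%). With the title letter as a covariate (4.16%) or titles ending in M (1.44%) the counts were 0 too. The counts were 2 with DESeq2 (15%), and 3 without the filter (9.26%) or with both libraries left out (30.5%). In KO, against 0, they were 1 with RLE (4.90%), DESeq2 (10.3%), the contrast's groups alone (4.39%) or both libraries left out (14.7%), 2 with the ribosomal share as a covariate (15.8%), and 3 without the filter (5.49%). Over both genotypes, against 2, 1 was called with library totals (27.1%), and 3 with DESeq2 (25.1%), limma-voom (18.6%), no filter (13.2%), the title letter (17.3%) or both libraries left out (37.8%). With 1 library left out of a group of 3, the count ran from 0 to 1 in KO (1.55% to 6.87% of all genes). It ran from 0 to 3 in WT (2.51% to 18.4%) and 1 to 4 over both (14.1% to 26.7%).

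Members that were not called changed sign: Clock in WT was at -0.063 with both libraries left out. Npas2 in KO was at -0.50 with limma-voom, -0.39 with the letter and -0.33 with both left out, and over both genotypes at -0.0095 with limma-voom and -0.079 with both left out. Per1 over both was at 0.14 among titles ending in M. Per2 with library totals was at 0.061 in WT and 0.28 over both, and over both at 0.020 with limma-voom, 0.051 with titles ending in M and 0.030 with the ribosomal share. Cry1 in KO was at 0.44 with library totals, 0.011 with the letter, 0.11 with titles ending in M and 0.14 with both left out, and over both at -0.080 with the ribosomal share. With 1 library left out, the log2 changes ran from -0.063 to 0.33 for Clock in WT, -0.36 to 0.74 for Npas2 in KO, -0.68 to 0.057 for Per1 over both, -0.55 to 0.003 for Per2 in WT, -0.40 to 0.85 for Per2 in KO, -0.35 to 0.25 for Per2 over both, -0.14 to 0.19 for Cry1 in KO and -1.41 to 0.14 for Nr1d1 in KO. The correlations with Arntl turned in the TAC libraries alone for Per1 (0.17), Cry1 (-0.062) and Dbp (0.054), and for Cry1 after centring (-0.37) and without the 2 farthest libraries (-0.060).

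Library totals moved the median log2 change of all genes to 0.37 in WT, 0.49 in KO and 0.45 over both, with 1044 higher and 133 lower calls in WT, 1325 and 60 in KO, and 3577 and 385 over both. Counts of called genes moved by over 1.5 times elsewhere: in WT 2243 without the filter, 2197 with DESeq2, 465 with the contrast's groups alone, 608 with the letter, 204 among titles ending in M and 4374 with both libraries left out; in KO 1385 with library totals, 928 higher and 403 lower without the filter, 1499 with DESeq2, 102 (titles ending in M), 2305 (ribosomal share) and 2117 (both left out); over both 1526 (titles ending in M) and 5436 (both left out). With 1 library left out the counts ran from 30 to 2663 in WT, 226 to 996 in KO and 1672 to 3870 over both. Between genotypes, without the filter 206 genes were called after TAC, 20 after sham and 80 for the interaction, and with both left out 14, 2 and 1; the contrast's groups alone gave 4 after sham. The cause was not tested. The ribosomal share raised the share of lower calls to 708, against 623 higher, in WT, 1222 of 2305 in KO and 1884 of 3429 over both.

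No paired analysis was possible because the labels give no numbers that pair samples. Limits are the 2 WT sham libraries, the unknown hour of sampling, and the low counts of Arntl and Npas2.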
